A study of Homo sapiens with 14 samples.

Results

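The open chromatin described here is the set of clusters that distal accessible regions formed in MM.1S, a human multiple myeloma (MM) cell line. A peak of the MM.1S list was called distal when it lay on chromosomes 1 to 22 and did not overlap the 2500 bp on either side of any annotated transcription start site (TSS, GENCODE release 44). Neighbouring distal peaks with a gap of 12.5 kb or less were joined, and groups of 5 or more peaks were kept. The clusters were thus chosen by the number and the positions of the MM.1S peaks themselves. They numbered 442 and held 2722 of the 43098 distal peaks (6.32%), out of 72802 MM.1S peaks in all.

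The peaks came from Omni-ATAC, which reads out open chromatin as the places that a transposase can reach and tag with adapters. MM.1S cells were grown alone (MONO, 3 libraries) or with HS5, a human bone marrow stromal cell line, and were then taken from the upper transwell (TSW, 3 libraries) or from the lower chamber in contact with HS5 (CO, 3 libraries). The comparison line RPMI8226, also from myeloma, had 1 MONO, 2 TSW and 2 CO libraries. By the study's methods, cells were sorted as CD90-CD38+ cells and the libraries were made from sorted cells. Each line is a single established line. The study also reported that a low level of HS5 cells remained among the myeloma cells sorted from the lower chamber. The part of these cells in the peaks was not tested. Each line has 1 reference list that pools its culture conditions, so MONO, TSW and CO cannot be told apart here. The only value given for a peak is a whole number, read as support, the number of libraries in which the peak was called (3 to 9 in MM.1S and 3 to 5 in RPMI8226). The lists hold no reads. The study's supplement gives read totals per library, in which MONO replicate 2 of MM.1S is the shallowest of that line. No value was taken from it.

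Distal open regions often mark enhancers, stretches of DNA where transcription factors bind and act on a promoter some distance away. Enhancers that crowd together over long stretches of a chromosome are typical of genes that hold a cell's identity, and in plasma cells and myeloma they are known at immunoglobulin genes, at plasma cell factors and at translocated oncogenes. Such domains are usually ranked by the signal of coactivators or acetylated histones. No such signal was measured here, and a cluster below is a crowd of peaks and nothing more. The gene named for a cluster is the protein-coding gene whose TSS is closest to the cluster's midpoint, and this was not shown to be its target. For this choice and for distances to a gene, the outermost annotated TSS of each gene was used. Another TSS of the same gene can lie closer.

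Sequences of the 4 clusters with the most peaks and of 7 other sites are given as examples, picked for a motif match. All are read 5′ to 3′ on the plus strand of hg38. The first set holds the 67 bp around 6 AP-1 matches found in the central 200 bp of peaks of the 4 largest clusters. AP-1 is the dimer of JUN and FOS factors, and its core (TGAGTCA on either strand) is in capitals. They lie 38.5 and 49.6 kb downstream of the FOXO3 TSS, 15.1 kb downstream of that of INPP4A, 24.7 kb from that of TENT5C, and 68.2 and 29.1 kb from that of CCDC88C. Of these 6 sites, 5 lie in a peak that RPMI8226 also had, and the exception is the second CCDC88C site. Over all clusters, 201 of the 248 peaks with an AP-1 match were overlapped, where 1642 of all 2722 clustered peaks were (60.3%). Few peaks of the 4 clusters held such a match: 3 of 25 at FOXO3, 1 of 22 at INPP4A, 1 of 22 at TENT5C and 2 of 21 at CCDC88C.
FOXO3, chr6:108598269-108598335: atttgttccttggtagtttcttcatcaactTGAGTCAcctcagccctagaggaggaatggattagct
FOXO3, chr6:108609409-108609475: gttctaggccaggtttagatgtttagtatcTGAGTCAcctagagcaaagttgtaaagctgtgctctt
INPP4A, chr2:98459933-98459999: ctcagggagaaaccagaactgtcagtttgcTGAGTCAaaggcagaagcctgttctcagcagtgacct
TENT5C, chr1:117630717-117630783: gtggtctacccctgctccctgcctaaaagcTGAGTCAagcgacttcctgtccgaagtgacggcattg
CCDC88C, chr14:91349606-91349672: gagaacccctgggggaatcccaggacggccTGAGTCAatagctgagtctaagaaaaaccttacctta
CCDC88C, chr14:91388721-91388787: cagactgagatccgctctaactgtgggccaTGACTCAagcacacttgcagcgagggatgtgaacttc

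The next sites belong to clusters near VEGFA, the angiogenic growth factor, and PRDM1, the plasma cell repressor BLIMP1, and are shown because all 3 peaks were called in 9 libraries and overlapped by RPMI8226. The VEGFA site is 28.8 kb downstream of the TSS, and a further AP-1 core follows it in lower case. The PRDM1 sites lie 136 and 152 kb downstream of the outermost annotated PRDM1 TSS, inside ATG5.
VEGFA, chr6:43798990-43799056: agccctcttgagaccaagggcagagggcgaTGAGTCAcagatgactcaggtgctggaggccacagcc
PRDM1, chr6:106129359-106129425: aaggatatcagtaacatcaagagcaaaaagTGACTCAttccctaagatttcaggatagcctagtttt
PRDM1, chr6:106145837-106145903: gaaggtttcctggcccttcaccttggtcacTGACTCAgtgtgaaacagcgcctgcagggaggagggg

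The last set gives the central 200 bp of the widest peak called in all 9 libraries in 4 clusters that differ in sharing, with a match of another motif or of AP-1 in capitals. The VEGFA window holds a STAT match (TTCCNGGAA), the element bound by STAT3. The XCR1 window holds an IRF match (GAAANNGAAA on either strand), and the EML4 window holds an NF-kB match. These 3 peaks were overlapped by RPMI8226. The ADARB1 window holds an AP-1 core, and no RPMI8226 peak overlapped it.
VEGFA, chr6:43848503-43848702: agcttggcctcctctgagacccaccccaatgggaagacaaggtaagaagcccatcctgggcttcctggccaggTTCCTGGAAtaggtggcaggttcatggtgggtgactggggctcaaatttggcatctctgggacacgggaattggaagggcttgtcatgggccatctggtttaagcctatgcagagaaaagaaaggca
XCR1, chr3:46098290-46098489: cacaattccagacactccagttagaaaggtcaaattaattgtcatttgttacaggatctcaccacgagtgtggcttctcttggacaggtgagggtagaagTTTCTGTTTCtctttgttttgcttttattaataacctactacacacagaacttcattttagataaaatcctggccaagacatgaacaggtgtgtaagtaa
EML4, chr2:42102377-42102576: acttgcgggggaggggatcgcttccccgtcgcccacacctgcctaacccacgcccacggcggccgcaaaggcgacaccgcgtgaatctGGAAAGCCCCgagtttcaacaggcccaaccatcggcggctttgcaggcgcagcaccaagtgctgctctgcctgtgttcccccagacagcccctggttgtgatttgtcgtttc
ADARB1, chr21:45060500-45060699: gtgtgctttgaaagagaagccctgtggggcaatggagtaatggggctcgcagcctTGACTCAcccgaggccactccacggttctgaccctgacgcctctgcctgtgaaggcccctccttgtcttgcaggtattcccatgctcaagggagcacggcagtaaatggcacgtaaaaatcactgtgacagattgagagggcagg

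Most clusters were small. Of the 442, 215 held 5 peaks, 117 held 6, 51 held 7 and 26 held 8, whereas 18 held 10 or more and 4 held more than 20. The median cluster spanned 27837 bp (from 8508 to 108583 bp) and its peaks summed to 3099 bp (from 1644 to 13991 bp), so that peaks covered a median of 11.6% of the span. Gaps inside clusters had a median of 4839.5 bp. The peak number and the gaps were set by the rule and are given as a description. At its edge, the 597 groups of 4 peaks that were left out had 62.6% of their peaks overlapped by RPMI8226 and 44.6% called in all 9 libraries, against 60.3% and 44.3% for the 215 groups of 5 that were kept.

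**Figure D1:**
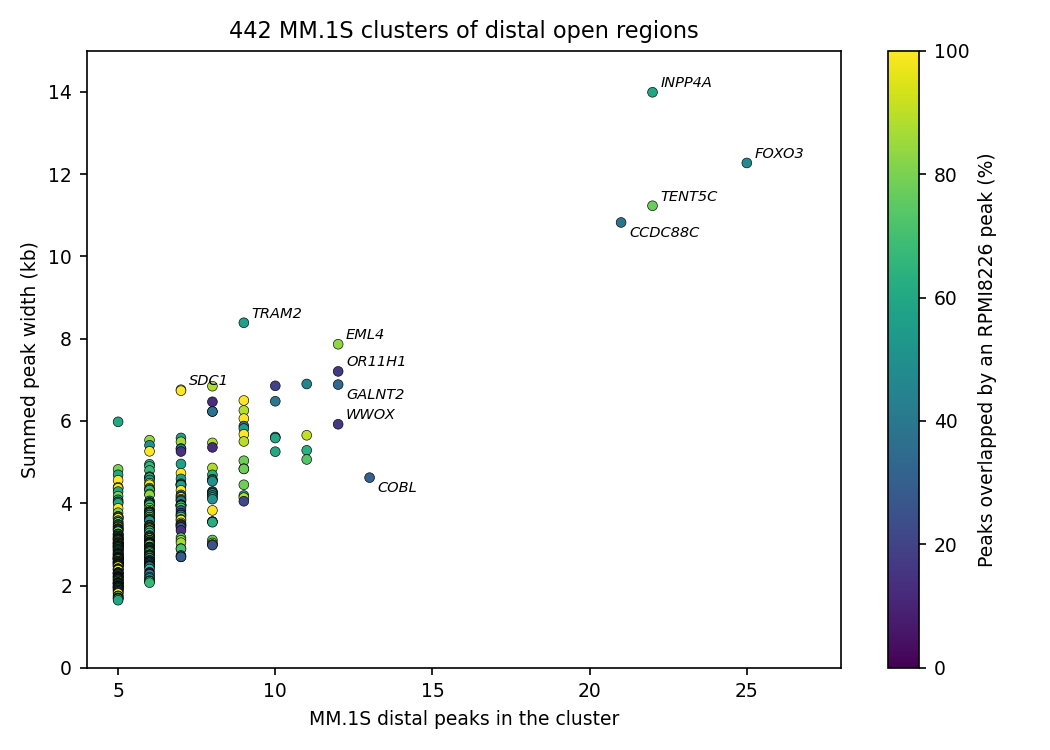
Each point is an MM.1S cluster, plotted by its number of distal peaks and by the summed width of those peaks in kb, and coloured by the percentage of its peaks that an RPMI8226 peak overlapped. The clusters near FOXO3, INPP4A, TENT5C and CCDC88C, with 21 to 25 peaks and 10.83 to 13.99 kb, stand apart from the rest, which hold 13 peaks or fewer.

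The cluster with the most peaks lay inside FOXO3, the forkhead factor held back by AKT signalling (chr6:108565225-108673807). It held 25 peaks over 108.6 kb, and all 25 were within the gene. Of these, 7 were called in all 9 libraries, 8 in 8 libraries, and 3 in only 3. RPMI8226 peaks overlapped 12 of the 25, of which 6 were among the 7 called in all 9 libraries. The peaks that RPMI8226 shared had a median width of 550 bp and the 13 others 395 bp. Further along the chromosome, 2 more clusters with 6 and 9 peaks had ARMC2 as the nearest gene, and 12 of their 15 peaks were overlapped.

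INPP4A, which encodes a phosphatase that degrades phosphoinositides of the PI3K pathway, had the largest summed width, 13991 bp in 22 peaks (chr2:98438686-98515468). Support and sharing went together there without exception. All 13 peaks called in every library were overlapped by RPMI8226, and none of the 9 peaks with lower support was. An overlap of 1 bp was enough to count. In bases, 32.0% of the open sequence of this cluster was overlapped, against a median of 45.8% over all clusters. The widest peak of this cluster measured 2446 bp. RPMI8226 had its own cluster of 11 peaks at this place.

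TENT5C, also known as FAM46C, encodes a poly(A) polymerase that is a frequent target of mutation in myeloma. Its cluster (chr1:117590402-117675125) reached across the gene and held 22 peaks, of which 10 were called in all 9 libraries and 8 in 8. With 17 of 22 peaks overlapped, it was the most shared of the 4 largest, and RPMI8226 had a cluster of 16 peaks there. The opposite held for CCDC88C, which encodes the Daple protein of WNT signalling (chr14:91349373-91414049). Only 8 of its 21 peaks were overlapped, although 14 of the 21 were called in 8 or 9 MM.1S libraries. Of the 6 CCDC88C peaks with support 8 a single peak was overlapped, compared with 5 of 8 such peaks at TENT5C.

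**Figure D2:**
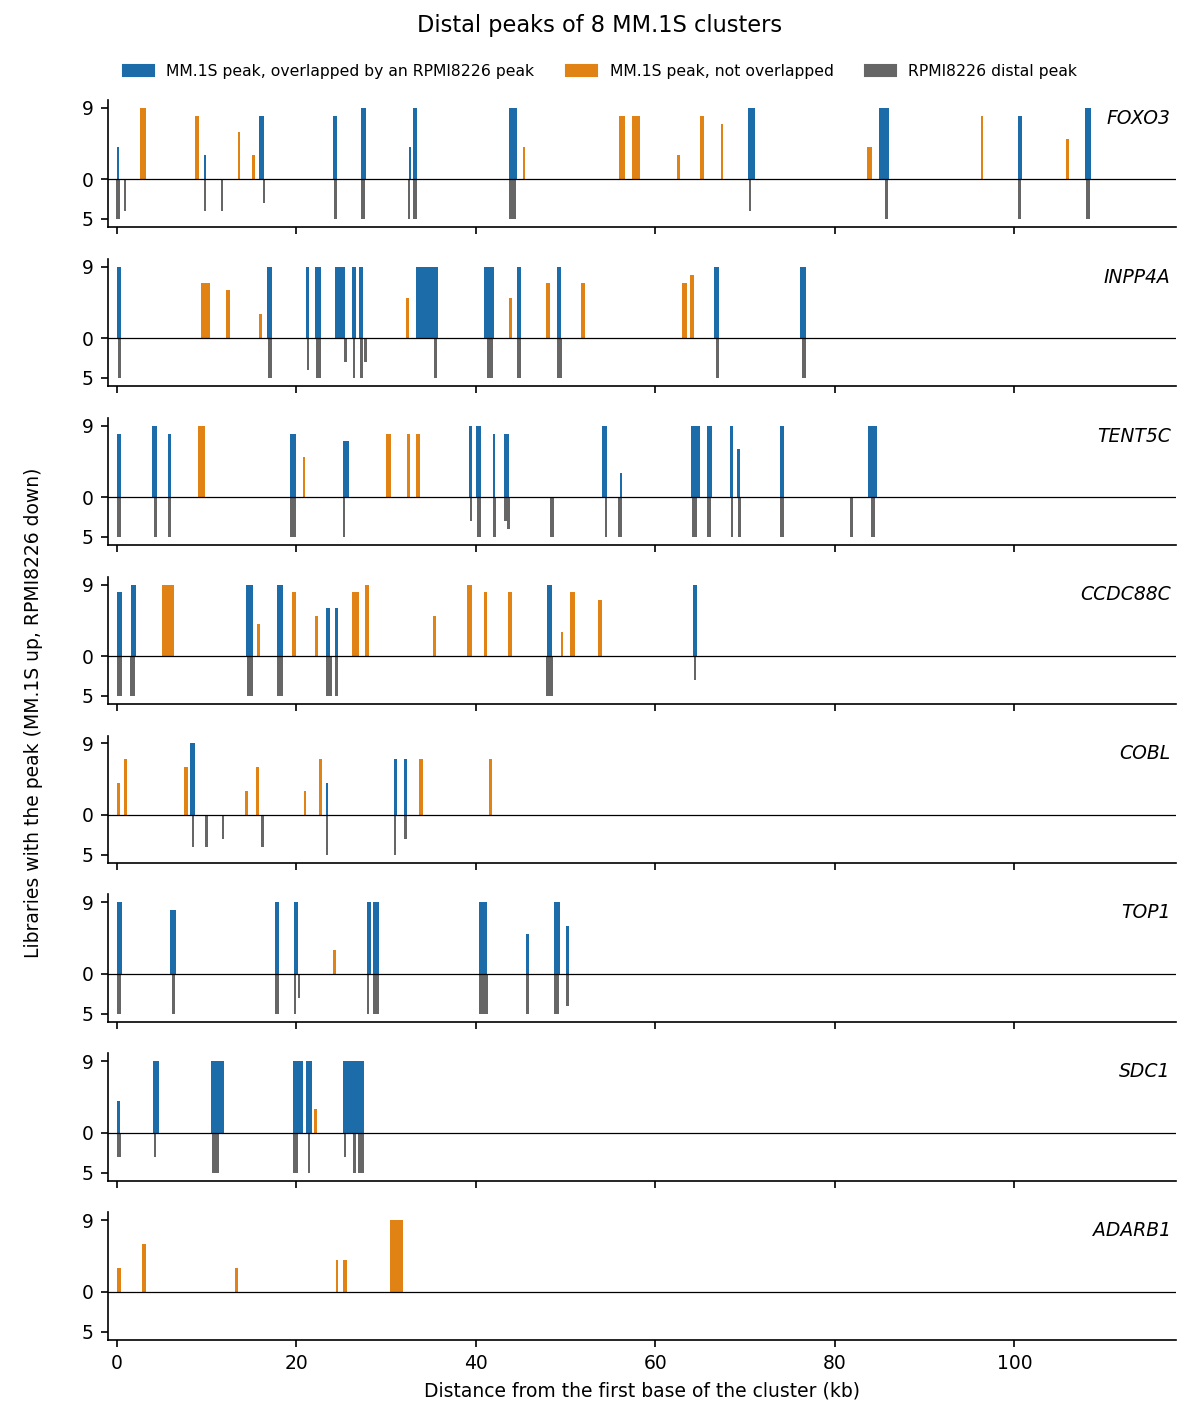
Peaks of 8 MM.1S clusters, with distance from the first base of the cluster in kb on the horizontal axis and the number of libraries with the peak on the vertical axis (MM.1S upwards, RPMI8226 downwards; bars narrower than 0.25 kb are drawn at 0.25 kb). Blue bars are MM.1S peaks overlapped by RPMI8226 and orange bars are those that were not: 10 of 11 are blue at TOP1, 6 of 7 at SDC1 and 0 of 6 at ADARB1.

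Other large clusters differed in how much RPMI8226 shared. Near EML4, a microtubule-binding protein, 10 of 12 peaks were overlapped (chr2:42086559-42142125), and upstream of TOP1, the DNA topoisomerase gene, 10 of 11 (chr20:40962756-41013097). Both had 7 peaks called in all 9 libraries. At NUAK2, a kinase of the AMPK family, 8 of 11 peaks were overlapped, and at COQ2, an enzyme of coenzyme Q synthesis, 7 of 11. TRAM2, with the fifth largest summed width, had 5 of 9, and the CWH43 cluster of 11 peaks had 5. Lower shares were found elsewhere, with 4 of 13 peaks overlapped at COBL, an actin nucleator, 4 of 12 at GALNT2, which starts O-linked glycans, and 4 of 10 at PCP4. At WWOX, a fragile-site gene in which translocations that activate the MAF oncogene often break, 2 of 12 peaks were overlapped (chr16:78729631-78770966). At GATA5 it was 2 of 10, and neither line had a promoter peak at this gene. The COBL cluster also had little support, with 1 of 13 peaks called in all 9 libraries, and 2 smaller clusters near COBL brought its total to 24 peaks, 6 of them overlapped. At GALNT2, WWOX, GATA5 and PCP4 most overlapped peaks had support 9 (3 of 4, 2 of 2, 2 of 2 and 4 of 4).

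**Figure D3:**
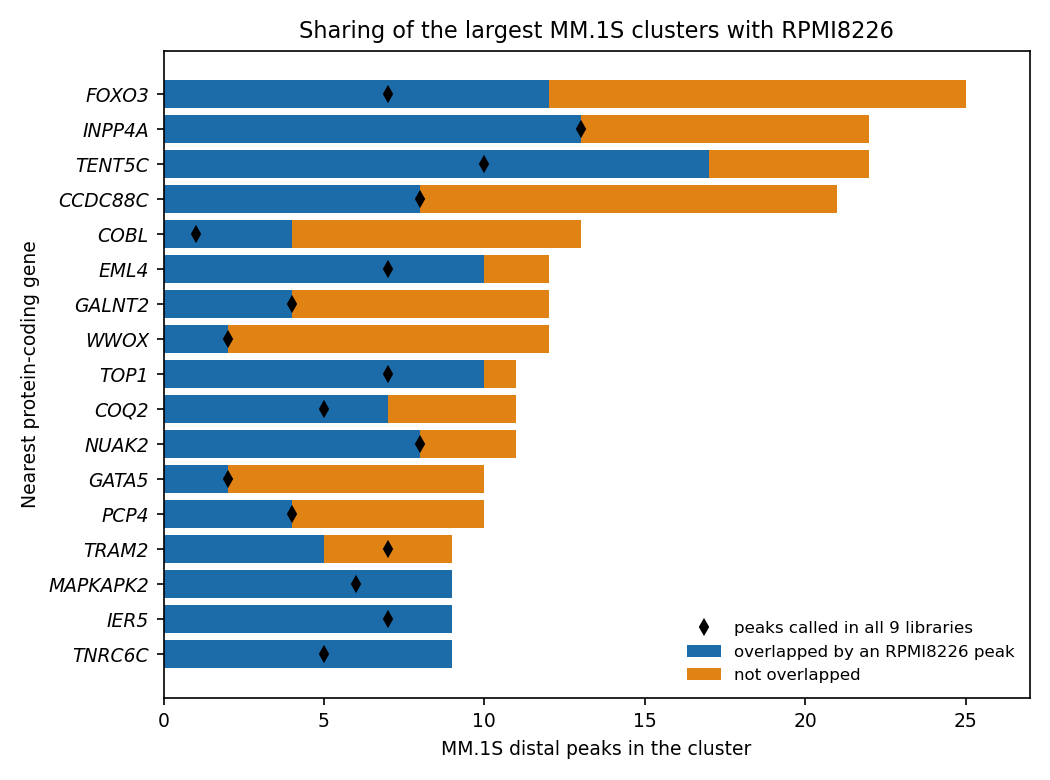
Number of distal MM.1S peaks in 17 large clusters picked from those named in the text, split into peaks overlapped by an RPMI8226 peak (blue) and not overlapped (orange). Clusters are labelled by the nearest protein-coding gene, and a black diamond gives the number of peaks called in all 9 MM.1S libraries. The large clusters near OR11H1 and CWH43 are not shown. Among those shown, sharing ran from 2 of 12 peaks at WWOX to 9 of 9 at MAPKAPK2, IER5 and TNRC6C. These last clusters were included because every peak was overlapped, so the upper end follows from the choice. At INPP4A, CCDC88C, GALNT2, WWOX, NUAK2, GATA5 and PCP4 the diamond falls at the end of the blue bar.

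Some of the large clusters lay in sequence that occurs more than once in the genome, where reads that map to several places are lost and a peak cannot be placed with certainty. In 19 of the 442 clusters, more than 50% of the peaks had most of their sampled 31-mers elsewhere in hg38. They include the cluster of 12 peaks far from OR11H1 on chromosome 22 (8 of 12 peaks repeated, 2 of 12 overlapped) and 4 clusters near CWH43 on chromosome 4 with 34 peaks in all, 29 of them repeated. Of all clustered peaks 6.87% were of this kind, and of the other distal peaks 5.17%.

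Sharing with RPMI8226 was complete in 50 clusters. The largest of these lay at MAPKAPK2, the kinase downstream of p38, with 9 peaks (chr1:206658210-206717737), near IER5, an immediate early response gene, with 9, and upstream of TNRC6C, a protein of microRNA silencing, with 9. MAP3K13, a kinase of the JNK pathway, followed with 8. GNG7, a G protein gamma subunit, had 7 peaks (chr19:2597926-2648922), and each was called in all 9 MM.1S libraries. RAPGEF5, LOXL1, XCR1 and a second cluster near FCRL5 also had 7 of 7 peaks overlapped. A cluster inside HIVEP3 with ENSG00000284895 as the nearest TSS had 7 of 7 as well. In 49 of these 50 clusters the span also met a cluster of RPMI8226 formed by the same rule. Each of the 50 spans held at least 5 distal RPMI8226 peaks, so this follows largely from choosing clusters with every peak overlapped.

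No peak was overlapped in 10 clusters, and 7 of these had no RPMI8226 peak of any kind within their span. They held 55 peaks. The 6 peaks near ADARB1, an RNA-editing adenosine deaminase, were called in 3, 3, 4, 4, 6 and 9 libraries (chr21:45029461-45061280). At FMN1, an actin nucleator of the formin family, 5 of 6 peaks had support 7 or more (chr15:33005592-33031780), and at CHN2, with PRR15 as the nearest TSS, 4 of 6 (chr7:29411073-29442526). MEF2C, a MADS-box factor of B cell development, had 6 peaks with support 3 to 7 inside the gene, and none was called in all 9 libraries. NPTX1 also had no peak with support 9. The other clusters without overlap were near CAPZA2, HTRA3, PPARGC1A, KCNA10 and CCL3L3, a chemokine gene of a copy-number variable family, with 5 peaks each. The promoter of PPARGC1A, a coactivator of mitochondrial biogenesis, and that of CCL3L3 had a peak in MM.1S and none in RPMI8226, whereas the promoters of ADARB1, NPTX1, FMN1, PRR15, MEF2C, CAPZA2 and HTRA3 had a peak in both lines.

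Between these ends, 114 clusters had fewer than 50% but at least 1 of their peaks overlapped, and 268 had 50% or more. Support moved with sharing. The median share of peaks called in all 9 libraries was 20% in the 10 clusters without overlap, 33.3% in the 114, 50% in the 268 and 60% in the 50 with every peak overlapped. At CD93, an endothelial and myeloid surface receptor, 2 of 9 peaks were overlapped, 1 of 9 was called in all 9 libraries, and the promoter had a peak in MM.1S and none in RPMI8226.

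Over all clusters, RPMI8226 peaks overlapped 1642 of the 2722 clustered peaks (60.3%, 95% Wilson interval 58.5 to 62.1%), where 59.9% of all distal MM.1S peaks were overlapped. Against the 40376 distal peaks outside clusters the difference was 0.41 percentage points (95% Newcombe interval -1.50 to 2.30), with a higher share on 12 of the 22 chromosomes and a lower one on 10. No difference in sharing was therefore detected between clustered and other distal peaks under this rule. The size of this difference depended on the rule: it was 4.05 points (2.92 to 5.17) with a gap of 25 kb, 1.49 points (0.401 to 2.57) for groups of at least 3 peaks, 1.45 points (0.0854 to 2.80) when only protein-coding transcripts defined promoters, and -9.38 points (-15.6 to -3.16) for at least 10 peaks. These intervals treat peaks as independent draws and cover counting error only, and with 1 list per line no variation between cultures enters them. Counted in bases, the median cluster had 45.8% of its open sequence overlapped (from 0 to 92.0%).

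At matched support the difference changed sign. Among peaks called in all 9 libraries, 80.7% of 1220 clustered peaks were overlapped and 77.5% of 16911 others, a difference of 3.15 points (0.756 to 5.36). Among those called in 8 libraries the shares were 55.6% and 62.5%, a difference of -6.91 points (-11.8 to -2.08), and at support 7 they were 42.8% and 52.0%, a difference of -9.17 points (-15.5 to -2.58). At support 3, 4, 5 and 6 the intervals of the difference included 0.

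**Figure D4:**
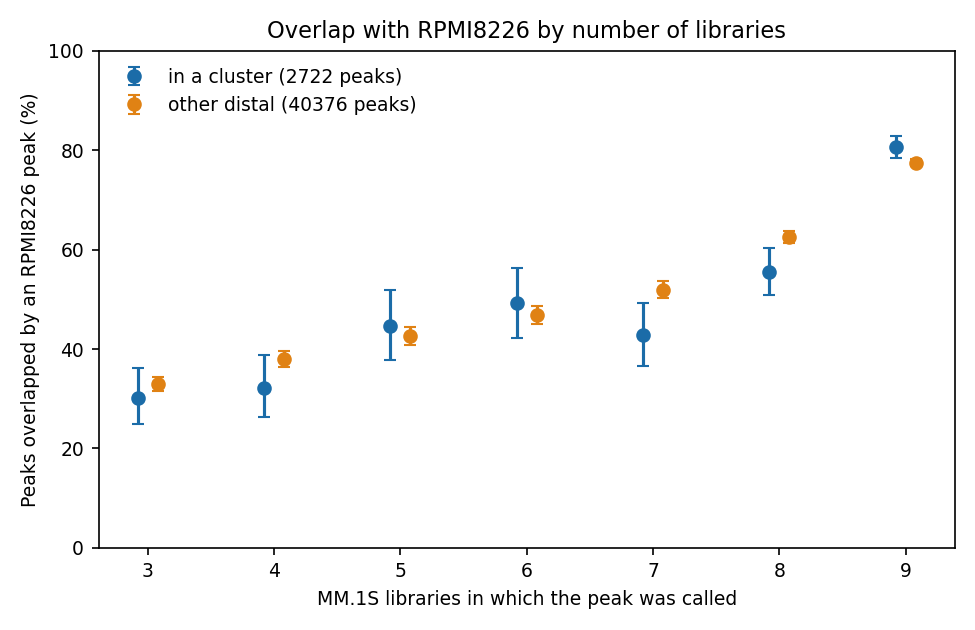
Percentage of MM.1S distal peaks overlapped by an RPMI8226 peak, by the number of MM.1S libraries in which the peak was called, for peaks in clusters (blue) and other distal peaks (orange), with 95% Wilson intervals. Clustered peaks lie below the others at support 7 (42.8% against 52.0%) and 8 (55.6% against 62.5%) and above them at support 9 (80.7% against 77.5%).

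By cluster size, the overlapped share was 60.3% in clusters of 5 peaks, 61.2% in those of 6 to 7 and 64.7% in those of 8 to 9, but 50.6% (44.4 to 56.8%) of the 245 peaks in the 18 clusters of 10 or more, 9.30 points below the other distal peaks (interval of the difference -15.5 to -3.08). Of these 18 clusters 3 lay mostly in repeated sequence. Without them the share was 53.3% (46.6 to 59.9%) in 15 clusters, and the interval of the difference, -13.3 to 0.0072 points, included 0.

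Clustered peaks were called in more libraries than other distal peaks. Of the 2722, 1220 (44.8%) were called in all 9 libraries, where 42.1% of all distal peaks were. The difference from the other distal peaks was 2.94 points (1.02 to 4.87) and had the same sign on 16 of 22 chromosomes. A peak can miss support 9 through the shallowest library alone, and the part of depth in this share was not tested. For support 7 or more, which requires at least 1 library of every culture condition, the shares were 69.0% and 65.5%, and the clustered share was higher on 19 of 22 chromosomes. Clustered peaks were also wider, with a median of 493 bp against 471 bp. Both differences turned with a gap of 5 kb (-3.47 points and -35 bp) and for at least 10 peaks (-2.90 points and -17 bp). When peaks were compared within 5 classes of width, the difference in the share called in all 9 libraries fell to 0.53 points (-1.13 to 2.19). Every peak had support 9 in 9 clusters, among them those at GNG7 and near USP6NL, and no peak did in 28.

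The same rule applied to RPMI8226 gave 920 clusters with 5744 peaks, 11.6% of its distal peaks. Of the 442 MM.1S clusters 199 (45.0%) met an RPMI8226 cluster, and of the 920 RPMI8226 clusters 198 (21.5%) met an MM.1S cluster. Inside the MM.1S spans lay 1957 distal RPMI8226 peaks, of which 1710 overlapped an MM.1S peak. The spans were chosen for being dense in MM.1S peaks, so this count follows largely from that choice. Of the peaks in RPMI8226 clusters 51.1% overlapped an MM.1S peak, and the share over all distal RPMI8226 peaks is not given here. A peak had to be present in at least 3 of 9 libraries for MM.1S but 3 of 5 for RPMI8226, and the part of these minimums and of read depth in both counts was not tested.

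Clusters were spread unevenly along the genome. Chromosome 20 had the largest share of its distal peaks in clusters, 11.2% (9.62 to 12.9%) in 24 clusters, and chromosome 13 the smallest, 1.27% (0.73 to 2.21%) in 2 clusters. Chromosome 20 also had the highest density of distal peaks, 21.5 per Mb, and chromosome 13 had 8.24 per Mb, where only chromosome 14 was lower at 8.12. Densities are per Mb of full chromosome length, and stretches that cannot hold a mapped peak were not taken out. The copy number of these chromosomes in MM.1S was not measured, and its part in these shares was not tested.

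Of the clustered peaks 50.4% had their midpoint in the body of a protein-coding gene, against 46.4% of other distal peaks (difference 4.03 points, 2.10 to 5.97, with the same sign on 13 of 22 chromosomes). In 262 clusters the span met a protein-coding gene. All peaks lay in gene bodies in 185 clusters and none did in 183. The nearest TSS was a median of 32361 bp from the cluster's edge, and 84 clusters had an MM.1S promoter peak within their span.

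The 442 clusters had 412 different nearest genes, 2.16% of the 19111 protein-coding genes of these chromosomes, and 24 genes were nearest to more than 1 cluster. Of the 412 genes 346 (84.0%, 80.1 to 87.2%) had an MM.1S promoter peak, where 77.9% of all protein-coding genes did, and 329 (79.9%, 75.7 to 83.4%) had a promoter peak in RPMI8226, where 73% of all did. The share with an RPMI8226 promoter peak was 84.9% of 258 genes where 50% or more, but not every peak of the cluster was overlapped, 77.6% of 49 genes where every peak was, 70.6% of 109 genes where fewer than 50% were and 70% of 10 genes where none was. The MM.1S promoter shares of these classes were 86.4%, 79.6%, 78.0% and 90%, so neither followed the sharing of the clusters in order. At FGFR3, the receptor kinase activated by translocation in a subset of myelomas, 3 of 7 peaks were overlapped and the promoter had a peak in MM.1S and none in RPMI8226. XCR1, where 7 of 7 peaks were overlapped, also had a promoter peak in MM.1S and none in RPMI8226. Such genes were 2 of 10 where no peak was overlapped and 11 of 109 where fewer than 50% were. They were 13 of 258 where 50% or more, but not every peak was overlapped, and 5 of 49 where every peak was. The share of all protein-coding genes with a promoter peak in MM.1S only is not given here, so these counts are a description. A gene nearest to several clusters can enter more than 1 class.

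Genes of plasma cell identity were nearest to a cluster in 5 of 25 cases (20%, against 2.16% of all genes). Within 100 kb of a cluster lay 5 of the 25, where 4.70% of all genes did, and PRDM1 was not among these. All 25 had a promoter peak in both lines. SDC1, which encodes the plasma cell marker CD138, had 7 peaks that summed to 6760 bp (chr2:20187299-20214863), with 5 called in all 9 libraries and 6 overlapped, and its widest peak measured 2386 bp. FCRL5, a surface receptor targeted in myeloma, had 2 clusters of 7 peaks with 5 and 7 overlapped, 171.7 and 40.2 kb from its TSS. The PRDM1 cluster lay in ATG5 (chr6:106129107-106147134), 135.6 kb from the PRDM1 TSS. Of its 6 peaks 4 were overlapped, 3 of them called in all 9 libraries. TXNDC5, a disulfide isomerase of the endoplasmic reticulum, had 1 of 5 peaks overlapped and none called in all 9. MEF2C, with no peak overlapped, was the fifth. Of the 18 genes of the B cell program, 1 was nearest to a cluster, ID3, an inhibitor of E proteins, with 7 of 8 peaks overlapped.

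Myeloma oncogenes and suppressors were nearest in 4 of 28 cases (14.3%; FGFR3, MYC, TENT5C and TRAF3). This and each count of nearest genes below stand beside 2.16% of all genes, and a single gene out of 20 or 24 is near that background. Within 100 kb of a cluster, where 4.70% of all genes lay, the counts differed. They were 7 of 28 myeloma genes (25%), 4 of 20 adhesion and chemokine genes (20%) and 3 of 20 unfolded protein response genes (15%). For the study's genes it was 4 of 18 (22.2%), for the IL6 pathway list 2 of 24 (8.33%) and for the B cell program 1 of 18 (5.56%). The MYC cluster lay 432.2 kb from the gene and held 9 peaks, 7 of them overlapped and 6 called in all 9 libraries. TRAF3, an inhibitor of noncanonical NF-kB signalling that myeloma cells often lose, had 3 of 5 peaks overlapped. In the IL6, STAT3 and AP-1 pathway 1 of 24 genes was nearest, IL6ST, the gp130 receptor subunit, with 3 of 5 peaks overlapped. Among genes of the unfolded protein response it was 1 of 20, EIF2AK3, the kinase PERK, with 2 of 5 overlapped. Of adhesion and chemokine genes it was 1 of 20, CCR2, with 6 of 7 peaks overlapped and a promoter peak in RPMI8226 and none in MM.1S. Of glucocorticoid response genes it was 3 of 11, namely NR3C1, the receptor itself (4 of 6 overlapped), BCL2L11, the pro-apoptotic factor BIM (3 of 5), and SGK1 (4 of 5), whose cluster lay 300.9 kb away. Within 100 kb of a cluster lay only 1 of the 11, BCL2L11, where 4.70% of all genes did, and NR3C1 was 118.8 kb from its cluster. The study named 18 genes from these same samples, which makes them no independent evidence, and 2 of them, VEGFA and SGK1, were nearest to a cluster. VEGFA had 8 peaks (chr6:43787471-43849083), 6 of them overlapped. None of 26 stromal marker genes was nearest to a cluster or had a cluster within 100 kb, and at 2.16% and 4.70% of all genes a count of 0 in so short a list is near the background.

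Immunoglobulin genes are not in the protein-coding class of the annotation and did not enter the search for the nearest gene. A look at them, made after the values were seen, found 4 clusters within 100 kb of such a gene. A cluster of 6 peaks (chr14:105557275-105582959), whose nearest protein-coding gene was TMEM121, ended 772 bp downstream of IGHA2, in the stretch known for the regulatory region of the heavy-chain locus. Of its 6 peaks 5 were overlapped by RPMI8226 and 5 called in all 9 libraries, and 5 lay in repeated sequence. A second cluster of 6 peaks met IGHA1, with 3 overlapped and 4 in repeated sequence. At the lambda light-chain locus a cluster of 5 peaks began 5449 bp from IGLC7, with 5 of 5 overlapped and none in repeated sequence. The fourth, of 5 peaks at variable segments of the kappa locus, had 1 overlapped.

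The sequence of the peaks was not used by the rule. Each of 16 motifs was searched as a consensus on both strands in the central 200 bp of every distal peak. Of clustered peaks 5.58% held an IRF match, where 8.63% of all distal peaks did, and the difference from the other distal peaks was -3.26 points (-4.10 to -2.29), with a lower share on 21 of 22 chromosomes. A CTCF match, the site of the insulator protein that anchors chromatin loops, was found in 2.31%, where 3.77% of all did (difference -1.55 points, -2.09 to -0.89, lower on 20 of 22 chromosomes). For RUNX (TGTGGTT) it was 9.33%, where 10.7% of all did (difference -1.42 points, -2.50 to -0.23).

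Matches of an E-box (CAGCTG), NF-kB and SP/KLF (GGGCGGG) were more frequent in clusters. The E-box was found in 18.1% of clustered peaks and 16.6% of all (difference from others 1.56 points, 0.11 to 3.09), NF-kB in 5.36% and 4.33% (1.11 points, 0.296 to 2.04) and SP/KLF in 4.56% and 3.29% (1.35 points, 0.608 to 2.22). Clustered peaks were richer in G and C, with a median of 50.5% against 48%. When peaks were compared within 5 classes of GC content, a comparison added after the values were seen, IRF (-1.92 points, -2.80 to -1.04) and CTCF (-2.03 points, -2.63 to -1.43) were still less frequent in clusters, whereas the intervals for RUNX, E-box, NF-kB and SP/KLF included 0. The CTCF interval included 0 among peaks with support 9 (-0.93 points, -1.79 to 0.196), and the IRF interval did so for clusters of at least 10 peaks (-1.70 points, -4.28 to 2.20).

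**Figure D5:**
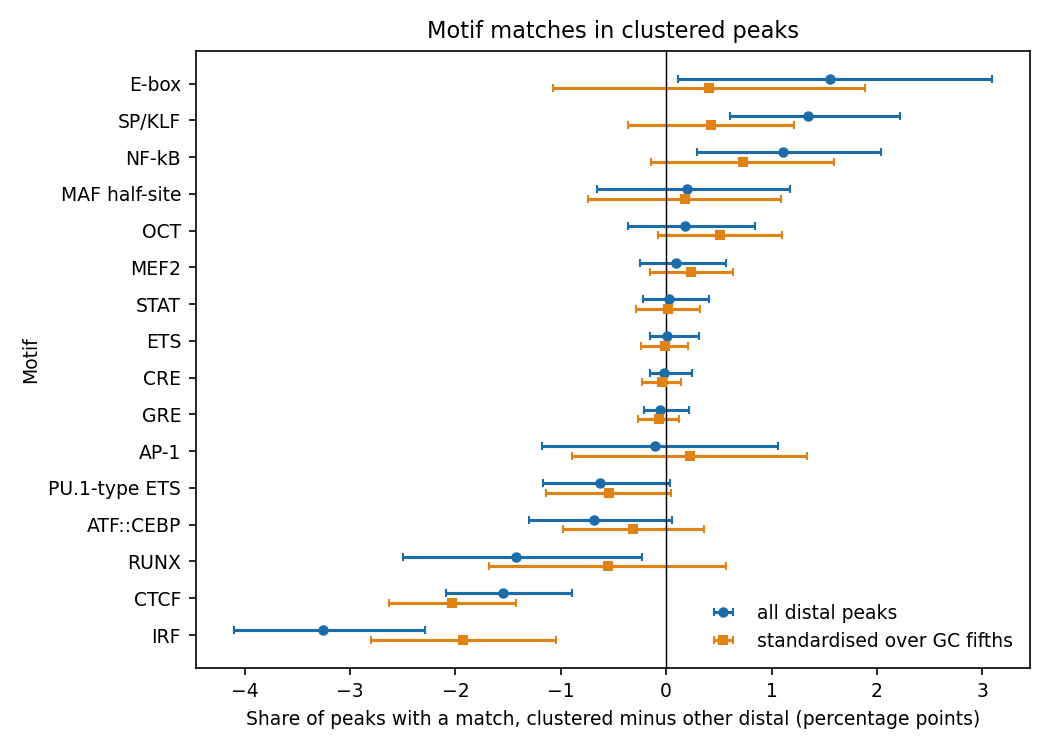
Difference in the percentage of peaks with a match, clustered minus other distal MM.1S peaks, in percentage points with 95% intervals, for 16 motifs, over all peaks (blue circles) and standardised over 5 classes of GC content (orange squares). IRF (-3.26 and -1.92) and CTCF (-1.55 and -2.03) lie below 0 in both, and E-box, SP/KLF and NF-kB lie above 0 only before the standardisation.

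No difference was detected for AP-1, found in 9.11% of clustered peaks, where 9.21% of all distal peaks had one (difference from others -0.11 points, -1.17 to 1.06). A total of 192 clusters held at least 1 match, and 5 held 3: FOXO3, CCL1, TNFRSF8, FRMD4A and USP6NL. Within clusters, 12.2% of the 1642 overlapped peaks and 4.35% of the 1080 others had an AP-1 match (difference -7.89 points, -9.87 to -5.85). An AP-1 split of this kind was already known over all peaks of the list, so it is no independent result here. The 1080 clustered peaks without overlap also had fewer PU.1-type ETS matches (GAGGAAGT), at 1.11% against 3.23% of the overlapped ones. CTCF matches were fewer too, at 1.39% against 2.92%, as were NF-kB matches, at 4.17% against 6.15%. For the MAF core (TGCTGAC) it was 4.63% against 6.70%. SP/KLF matches were more frequent in the clustered peaks without overlap, at 5.65% against 3.84% (difference 1.81 points, 0.202 to 3.56). For these motifs no split of the other distal peaks is given here. The part of GC content, width and support in these splits was not tested.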

How the data were processed

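Omni-ATAC was run on 14 libraries (9 of MM.1S, 5 of RPMI8226). The authors mapped reads to hg38 using Bowtie2, removed reads with several mapping places, called peaks per library with MACS3 and kept those present in at least 3 libraries. The deposited lists give chromosome, start, end and a whole number, read here as the number of libraries with the peak. They hold no reads, so depth, its precision and differences between cultures could not be computed. The calling threshold and any transposase offset are not given in the sources used here. Samples were grouped by line and culture condition from the titles.

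Starts were counted from 0 and printed from 1. The lists' coordinates fitted within the hg38 chromosomes. Peaks were shared when they overlapped by at least 1 bp. Shares have Wilson and differences Newcombe 95% intervals (GC and width classes: stratified normal intervals). No p-value was computed. Repeated sequence was judged from 17 31-mers per peak. Motif consensus sequences were matched on both strands, 7 of the 16 with degenerate bases (ATF::CEBP, STAT, IRF, GRE, MEF2, NF-kB and CTCF). Python 3.11.15, numpy 2.4.6, pandas 2.3.3, scipy 1.17.1 and pysam 0.24.0 were used, and the cluster, overlap and interval code was tested on simulated data.

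The members, gene lists and tests were chosen with earlier results of these data known. Named genes are those nearest to, or hosting, the 15 clusters with most peaks, the 10 with the largest summed width, the 10 largest with no peak overlapped, the 10 largest with every peak overlapped, and members of the 9 gene lists. USP6NL, CCL1, TNFRSF8, FRMD4A, CD93, ARMC2 and the immunoglobulin genes were added after their values were seen, as were the 67 bp windows. Only some of these windows are shown, and 1 from the 4 largest clusters is not reported here. Alternatives changed the gap, the number of peaks, the promoter window, the support, the overlap and the scanned sequence.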

Additional observations from a re-analysis of the deposited data

How the results depend on the processing

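Leaving out a library needs values per library, which the lists do not hold, and error between cultures is unknown. No paired analysis was possible because each line has 1 list that pools its replicates and conditions.

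The number of clusters followed the rule closely. It was 58 with a gap of 5 kb, 1312 with 25 kb, 2757 for at least 3 peaks, 18 for at least 10, 664 with a promoter window of 1 kb, 867 when only protein-coding transcripts defined promoters, 136 from peaks with support 7 or more and 44 from peaks with support 9. The overlapped share was 47.7% when 50% of both peaks had to overlap, 45.2% against RPMI8226 peaks with support 5, 79.8% in clusters of support 9 peaks, 55.7% with a gap of 5 kb, 63.1% with 25 kb, 50.6% for at least 10 peaks and 44.4% counted in bases.

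The difference in sharing between clustered and other distal peaks rose to 4.05 points with a gap of 25 kb, 1.49 for at least 3 peaks and 1.45 with protein-coding transcripts, each with an interval above 0, and was -9.38 for at least 10 peaks. The difference in the share called in all 9 libraries was 0.53 within width classes, -3.47 with a gap of 5 kb and -2.90 for at least 10 peaks. The difference in median width, 22 bp, became -35 and -17 bp under these last 2 settings, 35 bp with a gap of 25 kb and 35 bp among support 9 peaks. Motifs more frequent in clusters numbered 3, but 1 at support 9, 0 for at least 10 peaks and 0 within GC classes. Those less frequent numbered 3, but 1 for at least 10 peaks (CTCF) and 2 at support 9 (IRF and ATF::CEBP). The share of nearest genes with an RPMI8226 promoter peak was 90.6% when the nearest gene had to have an MM.1S promoter peak. Gene list members nearest to a cluster numbered 17, but 65 for at least 3 peaks and 1 for at least 10. The cause of these shifts was not tested. Leaving out repeated sequence, added after the data were seen, kept the differences in sharing (0.52 points) and support (3.37 points).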
